A study of Mus musculus with 17 samples.

Results

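RNA-seq libraries of mouse ovarian follicles were compared within batch 1 of the series, as labelled by the submitters: 3 libraries labelled Tyrphostin against 6 labelled Control. These 9 libraries are all those of batch 1, out of 17 in the series, and every gene that passed a low-count filter was described. Per the labels, the follicles came from CD1 mice of 16 days and reached the antral stage after 8 days in eIVFG culture (encapsulated in vitro follicle growth, in which follicles grow in a gel). Triplicate follicles made up each sample, and the treatment was 10 µM Tyrphostin-AG1478 in DMSO with hCG for 4 h. Because that treatment text is attached to every sample, Control ones included, the labels do not say whether Control follicles received hCG or DMSO. The Control libraries carry library names of 2 sets, set 1 (Control 1 to 3) and set 2 (Control 4 to 6). Whether libraries of a set share animals or a culture is not stated, so the p-values measure the spread between these libraries.

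Tyrphostin AG1478 is a small molecule that blocks the kinase of the epidermal growth factor receptor, EGFR. In an ovulating follicle, luteinizing hormone (mimicked in culture by hCG) acts on mural granulosa cells through cyclic AMP, and these cells shed the EGF-like ligands amphiregulin, epiregulin and betacellulin. The ligands act on EGFR of granulosa and cumulus cells, and the RAS to ERK kinase cascade then turns on genes for cumulus expansion, prostaglandin synthesis and progesterone action, while genes of the growing follicle, such as aromatase, are turned off.

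Library totals ran from 1820545 counts in Control 6 to 7451417 in Tyrphostin 1. Tyrphostin libraries were deeper, with a mean of 6155000 ± 1394000 (SD, n = 3), than the Control libraries, with 3786000 ± 1033000 (SD, n = 6; exact two-sided permutation test, p = 0.0476, adjusted p = 0.381 over 12 library measures). Granulosa markers took 5.96 to 7.00% of the counts in Control and 6.51 to 8.23% in Tyrphostin, and oocyte markers 0.00426 to 0.0124% and 0.00421 to 0.0106%. Endothelial, immune and blood markers each stayed at or below 0.00897% in every library, and the granulosa markers Foxl2 and Amh did not pass the filter. On the first principal component, which carried 45.1% of the variance over 500 genes, all Tyrphostin libraries lay on one side and all Control libraries on the other, while Control 6 stood apart on the second. Since these are bulk samples, fewer cells of a type and less RNA per cell cannot be told apart.

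Of 25198 rows in the table, 9423 genes passed the filter and were tested. At an adjusted p under 0.05 a total of 634 genes (6.73% of those tested) differed, and such genes are named called here. Of these, 277 (2.94%) were higher in Tyrphostin and 357 (3.79%) were lower. The median log2 fold change was 0.02 over all genes, 1.27 over those higher and −1.42 over those lower. Of all genes tested, 4857 lay above 0 and 4566 below. Changes of at least 1 on the log2 scale made up 515 of the calls, 218 higher and 297 lower, and 22 of the lower genes and 7 of the higher genes had moved by 3 or more. For 1075 genes (11.4%) the Tyrphostin libraries lay all above or all below the 6 Control libraries, and 545 of the called genes were among them. Scaling to total counts in place of TMM shifted the median of all genes to 0.18 and gave 459 genes higher and 264 lower, so that 63.5% of calls were higher in place of 43.7%. A total of 249 calls (91 higher, 158 lower) held with each library left out in turn, and leaving out Tyrphostin 2 gave 394 calls in all. Beside a named gene whose call was lost in that way, the libraries concerned and the largest adjusted p, or the number of such fits, are given.

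**Figure D1:**
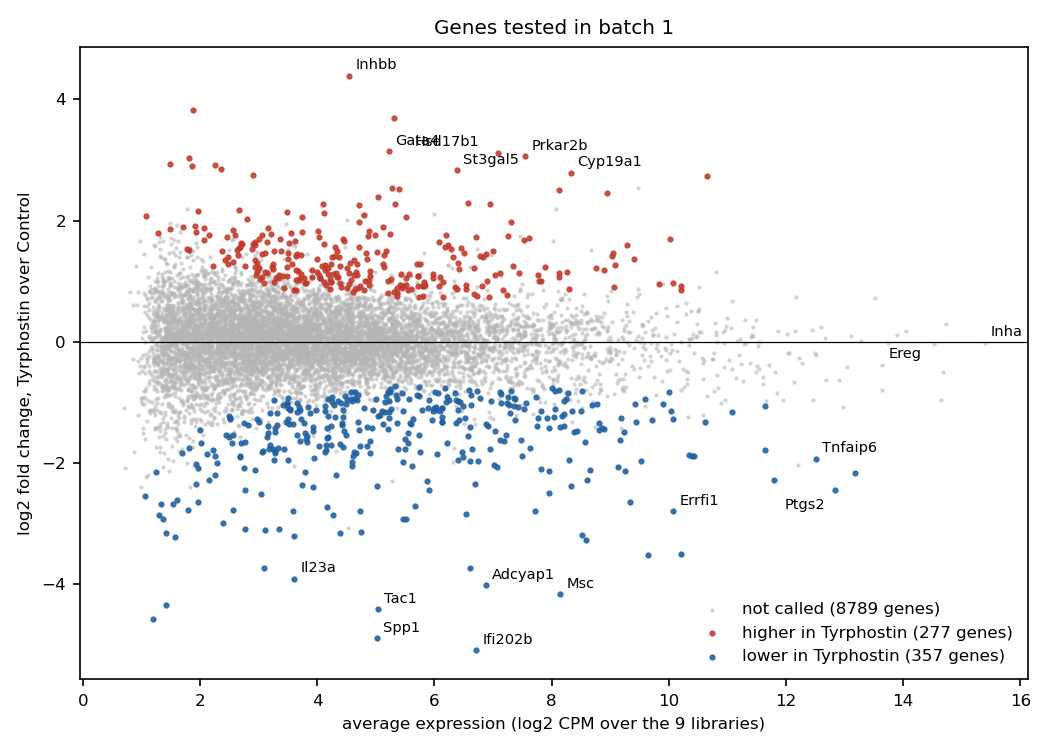
Each point is 1 of the 9423 genes tested, with its average expression (log2 CPM over the 9 libraries) on the x axis and its log2 fold change of Tyrphostin over Control on the y axis. The 277 genes called higher are red and the 357 called lower are blue. The lower genes extend to −5.09 (Ifi202b) and include Ptgs2 and Tnfaip6 at high average counts, and Inhbb, at 4.39, has the largest labelled rise.

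The genes with the largest rises, at an average log2 CPM of at least 3 and without overlap of the groups, included genes of estrogen and inhibin synthesis. CPM are counts scaled to a common library total after TMM scaling, and for the 6 Control libraries the lowest, median and highest are given. Inhbb, the beta B subunit of activin and inhibin, was at 0.257, 2.09 and 6.86 CPM in Control and at 40.6, 97.6 and 43.0 CPM in Tyrphostin 1 to 3. Every Tyrphostin library thus lay above every Control library, and the difference was 4.39 ± 0.64 (log2 fold change ± SE, adjusted p = 0.00235), a 21.0-fold rise. The lowest Control value lay below a floor of 3 counts, which is 0.62 to 1.65 CPM in the Control libraries. The size of this fold is therefore uncertain. Hsd17b1, which converts estrone to estradiol, was at 17.9, 38.0 and 51.1 CPM in Control and at 473, 239 and 273 CPM in Tyrphostin (3.12 ± 0.29, adjusted p = 3.98e-06). Cyp19a1, the aromatase that makes estrogens from androgens, was at 57.0, 97.9 and 161 CPM in Control and at 846, 503 and 895 CPM in Tyrphostin (2.79 ± 0.28, adjusted p = 1.09e-05). For both enzymes the lowest Tyrphostin library was more than 3 times the highest Control library.

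Transcription factors and signalling genes were among the other rises. Gata4, a factor that drives granulosa genes, rose by 3.14 ± 0.42, from 3.58, 11.3 and 15 CPM in Control to 33.9, 113 and 120 CPM in Tyrphostin. Nr5a2, the nuclear receptor LRH-1, was at 23.9, 39.0 and 58.5 CPM in Control and 185, 156 and 257 CPM in Tyrphostin (2.29 ± 0.25, adjusted p = 2.31e-05). Prkar2b, a regulatory subunit of the cyclic AMP-dependent kinase, was at 22.2, 49.6 and 94.4 CPM in Control and 301, 655 and 400 CPM in Tyrphostin (3.06 ± 0.38, adjusted p = 0.000174). In these 3 genes no Tyrphostin library reached down to the Control range. Prlr, the prolactin receptor, rose by 2.27 ± 0.21, and Greb1, a gene that responds to estrogen, by 2.46 ± 0.29. St3gal5, the synthase of the ganglioside GM3, was at 19.6, 26.6 and 32.6 CPM in Control and 257, 122 and 199 CPM in Tyrphostin, a 7.12-fold rise (2.83 ± 0.24, adjusted p = 1.9e-06). The other genes of this group were Nap1l5 (a nucleosome assembly protein, 2.73 ± 0.31), Rasgef1b (an exchange factor for RAS-like proteins, 2.52 ± 0.22), Hao2 (a peroxisomal oxidase, 2.51 ± 0.32), Tmem14c (a mitochondrial protein of heme synthesis, 2.12 ± 0.31), Rab5if (2.28 ± 0.52) and Tnfsf11 (the cytokine RANKL, 2.27 ± 0.57). The last pair were the weakest: the call of Rab5if was lost without Control 1, Tyrphostin 2 or Tyrphostin 3 (adjusted p up to 0.125), and that of Tnfsf11 without Control 1, Control 6, Tyrphostin 2 or Tyrphostin 3 (up to 0.176).

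The largest falls included those of secreted peptides, cytokines and surface proteins. Spp1, the secreted glycoprotein osteopontin, was at 29.3, 43.0 and 80.7 CPM in Control and at 1.09, 1.90 and 1.86 CPM in Tyrphostin, which was 29.6-fold lower (−4.89 ± 0.39, adjusted p = 1.37e-06). Msc, the basic helix-loop-helix repressor musculin, was at 314, 388 and 582 CPM in Control and at 13.6, 26.1 and 29.2 CPM in Tyrphostin, 18.0-fold lower (−4.17 ± 0.33, adjusted p = 1.37e-06). Sdc1, the heparan sulfate proteoglycan syndecan 1, was at 1251, 1526 and 3070 CPM in Control and at 162, 197 and 92.8 CPM in Tyrphostin, 11.3-fold lower (−3.50 ± 0.37, adjusted p = 1.62e-05). All Control libraries lay above all Tyrphostin libraries in these genes, by more than 6 times between the nearest libraries for Sdc1. Ifi202b, an interferon-inducible gene, had the largest fall, from 61.1, 97.9 and 309 CPM to 5.83, 3.50 and 4.10 CPM (−5.09 ± 0.74, adjusted p = 0.00218). It belongs to a family of near-identical genes whose reads the counting could split. Among signalling genes, the cytokine subunit Il23a fell by 3.91 ± 0.45 and the cytokine Il6 by 3.14 ± 0.75, and the call of Il6 was lost without any 1 of the Tyrphostin libraries (adjusted p up to 0.164). Gpr83, a G protein-coupled receptor, fell by 3.15 ± 0.73, lost without Control 6 or any 1 of the Tyrphostin libraries (up to 0.13). The remaining genes of this group were Krt23 (a keratin, −3.73 ± 0.44), Fam107b (−3.73 ± 0.32), Serpinb9 (an inhibitor of granzyme B, −3.27 ± 0.42), Thbd (thrombomodulin, −3.21 ± 0.55), Fgl2 (a fibrinogen-like protein, −3.19 ± 0.41) and the neuropeptide genes Tac1, Adcyap1 and Nts, described with their list.

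**Figure D2:**
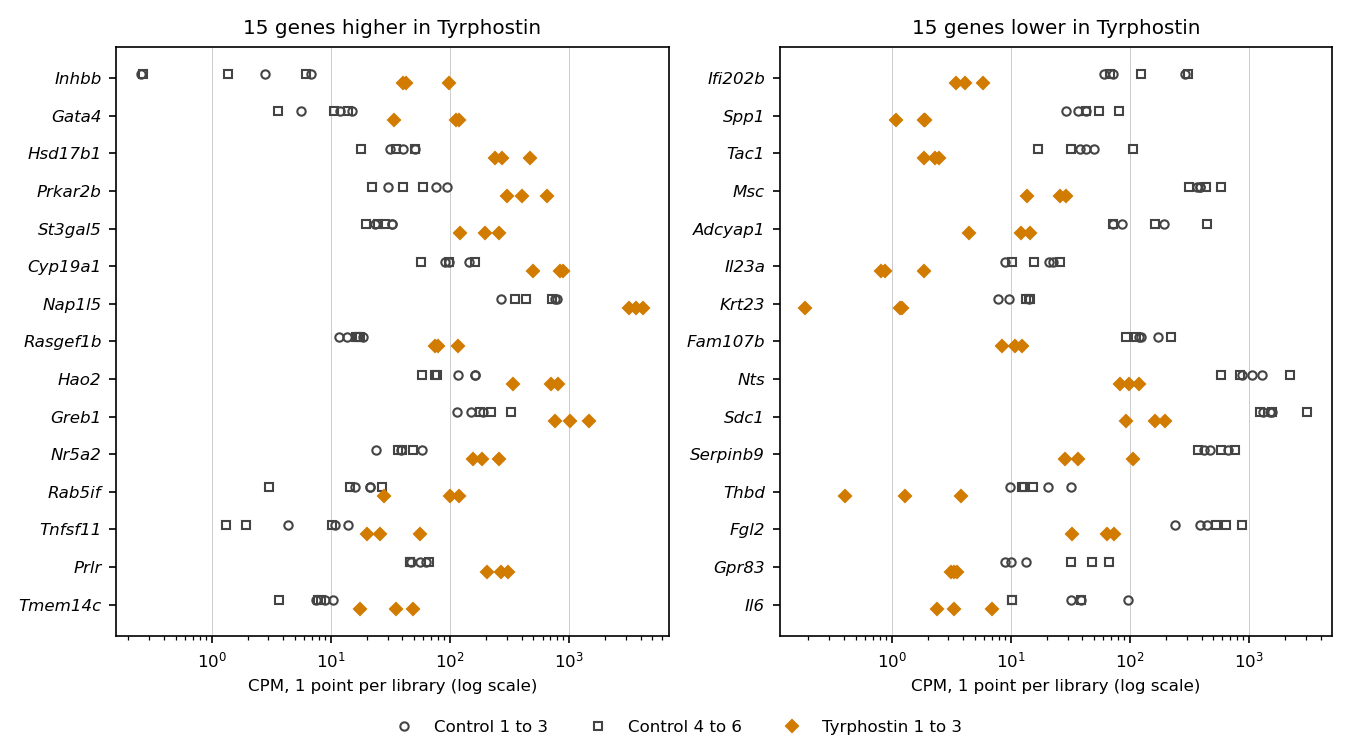
CPM of the 15 genes with the largest rises (left) and the 15 with the largest falls (right) in each of the 9 libraries, on a log axis. Open circles are Control 1 to 3, open squares Control 4 to 6 and filled diamonds Tyrphostin 1 to 3. The groups do not overlap in any of these genes, which was a condition for entering the plot, and Rab5if has its lowest Tyrphostin library (27.8 CPM) next to its highest Control library (26.9 CPM).

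Sequence before the start of transcription is printed for 6 called genes, 3 lower and 3 higher, because each holds a motif bound by factors of the pathways described (cyclic AMP, AP-1, EGR and NR5A). RefSeq promoter windows (GRCm38.p6) matched 7463 of the 9423 genes by symbol, and 7519 (79.8%) with older symbols. Since fewer than 80% had one, a comparison of motif shares between called and other genes is void and is not given. Motifs were searched on both strands in the 250 bases before each start: the cyclic AMP response element TGACGTCA and its core TGACG, the AP-1 site TGANTCA, the EGR site GCGNGGGCG and the NR5A site CAAGGTCA. Of 32851 windows in the mouse table they were held by 1.55%, 17.8%, 6.75%, 4.7% and 1.33%. A match describes letters only, and capitals mark the matches; TGACGTCA contains TGACG and, like TGANTCA, reads alike on both strands. The Fgl2 window, chr5:21372423-21372672 on the plus strand, holds an AP-1 site that begins 16 bases before the start, and that of Tnfaip6, chr2:52037863-52038112 on the plus strand, an AP-1 site at 142 bases. The Has1 window, chr17:17855189-17855438 on the minus strand, holds a cyclic AMP response element at 83 bases, and that of Dusp8, chr7:142095285-142095534 on the minus strand, holds them at 107 and 63 bases. The St3gal5 window, chr6:72097358-72097607 on the plus strand, holds the core TGACG at 58 bases and an EGR site on the opposite strand at 45 bases. The Dhcr7 window, chr7:143822917-143823166 on the plus strand, lies before the first of its starts and holds an NR5A site at 52 bases and an EGR site on the opposite strand at 147 bases. Fgl2, Tnfaip6 and Has1 were called lower and St3gal5, Dusp8 and Dhcr7 higher.
Fgl2: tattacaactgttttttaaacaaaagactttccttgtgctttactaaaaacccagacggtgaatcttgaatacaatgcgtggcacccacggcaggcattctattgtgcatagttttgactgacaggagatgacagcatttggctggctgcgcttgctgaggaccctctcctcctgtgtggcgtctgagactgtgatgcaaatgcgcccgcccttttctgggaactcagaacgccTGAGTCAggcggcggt
Tnfaip6: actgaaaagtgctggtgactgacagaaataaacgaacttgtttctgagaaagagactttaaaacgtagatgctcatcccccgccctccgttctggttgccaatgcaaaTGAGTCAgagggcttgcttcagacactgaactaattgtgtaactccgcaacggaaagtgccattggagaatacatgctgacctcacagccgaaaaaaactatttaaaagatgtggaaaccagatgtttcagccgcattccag
Has1: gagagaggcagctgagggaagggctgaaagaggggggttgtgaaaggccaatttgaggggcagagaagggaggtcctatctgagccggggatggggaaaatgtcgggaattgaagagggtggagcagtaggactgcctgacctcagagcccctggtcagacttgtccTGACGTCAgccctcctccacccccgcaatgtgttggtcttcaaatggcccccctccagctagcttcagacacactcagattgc
St3gal5: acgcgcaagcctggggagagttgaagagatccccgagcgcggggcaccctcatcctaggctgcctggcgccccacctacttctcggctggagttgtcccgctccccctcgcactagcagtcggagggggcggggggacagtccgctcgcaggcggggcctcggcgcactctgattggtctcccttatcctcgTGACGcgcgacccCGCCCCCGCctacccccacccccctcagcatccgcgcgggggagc
Dusp8: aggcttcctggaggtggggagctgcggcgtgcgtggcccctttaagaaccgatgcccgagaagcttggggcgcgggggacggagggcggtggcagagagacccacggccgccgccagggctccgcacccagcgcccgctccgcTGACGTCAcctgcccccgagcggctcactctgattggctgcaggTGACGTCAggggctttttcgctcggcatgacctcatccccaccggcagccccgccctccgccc
Dhcr7: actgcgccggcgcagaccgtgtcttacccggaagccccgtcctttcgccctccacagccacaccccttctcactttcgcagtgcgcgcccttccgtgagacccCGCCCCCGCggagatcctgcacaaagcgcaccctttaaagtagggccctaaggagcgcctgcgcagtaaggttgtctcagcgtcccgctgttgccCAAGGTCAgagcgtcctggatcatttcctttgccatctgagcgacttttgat

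The called genes of highest average counts, with no correction for length, were described next, beside Ptgs2 and Tnfaip6, which come with their lists. Sult1e1, which inactivates estrogens by sulfation, was at 3180, 13761 and 18561 CPM in Control and at 2621, 3386 and 2421 CPM in Tyrphostin (−2.16 ± 0.42, adjusted p = 0.00404), and its lowest Control library lay within the Tyrphostin range. Slc23a2, a vitamin C transporter, fell by 2.29 ± 0.33, and Abhd2, a lipid hydrolase, by 1.78 ± 0.30. On the other side, Nap1l5 rose from 267, 579 and 791 CPM to 4223, 3206 and 3627 CPM. Vcam1, a cell adhesion molecule, rose by 1.70 ± 0.37 (call lost without Tyrphostin 1 or Tyrphostin 2, adjusted p up to 0.0644), Ddit4l, an inhibitor of mTOR, by 0.97 ± 0.23 (lost without Tyrphostin 2, 0.0756), and Mid1ip1, a regulator of lipid synthesis, by 0.86 ± 0.22 (lost without Tyrphostin 1 or Tyrphostin 2, up to 0.0595). The tetraspanin Cd81 rose by 0.92 ± 0.26, a call lost without Control 1, Control 2, Control 3, Control 6 or Tyrphostin 2 (up to 0.272).

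The genes were then read by role, over lists of which 822 of 1051 genes were tested and 125 were called. Over all genes tested, 6.73% were called. Because the lists were chosen with earlier results of these data known, a larger share of calls within them is not a result. Of 11 tested EGF-like ligands and sheddases, 0 were higher and 2 lower, Nrg1 (the ligand neuregulin 1) and Rhbdf2 (a partner of the ligand-shedding protease), with a median of −0.50 against 0.02 over all genes. Against Control set 1 alone 5 members were lower, and against Control set 2 alone 0 were, so both calls were lost there. Nrg1 was at 3.86, 5.26 and 8.98 CPM in Control and at 1.90, 1.60 and 1.30 CPM in Tyrphostin (−1.88 ± 0.41, adjusted p = 0.0079). The ligands of the ovulatory follicle did not pass the test. Areg was at 264, 617 and 1334 CPM in Control and 447, 195 and 181 CPM in Tyrphostin (−1.42 ± 0.54, adjusted p = 0.15). Ereg was at 4956, 14349 and 19351 CPM in Control and 11085, 10808 and 10038 CPM in Tyrphostin (−0.38 ± 0.33, adjusted p = 0.578). Btc was at 3340, 7346 and 9302 CPM in Control and 3680, 3997 and 2702 CPM in Tyrphostin (−0.96 ± 0.31, adjusted p = 0.0711). The groups overlapped in Areg, Ereg and Btc, and Hbegf, another ligand, did not pass the filter.

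Among 14 tested receptors, adaptors and inhibitors of the EGFR family, 0 were higher and 3 lower. Errfi1, the feedback inhibitor MIG6 that binds the active receptor, was at 764, 1246 and 3119 CPM in Control and at 219, 292 and 142 CPM in Tyrphostin (−2.79 ± 0.45, adjusted p = 0.00152), with no overlap. Egfr itself was at 22.0, 30.4 and 35.6 CPM in Control and 17.1, 14 and 15.3 CPM in Tyrphostin (−0.96 ± 0.23, adjusted p = 0.0156), a call lost without Tyrphostin 2 or Tyrphostin 3 (up to 0.0711). Cblb, a ubiquitin ligase of active receptors, fell by 1.05 ± 0.24 (lost without Tyrphostin 1, 0.0747). Erbb2 did not pass the test (−0.29 ± 0.29, adjusted p = 0.643). Of the 14 kinases and other core genes from RAS to ERK, only Rps6ka2, a kinase downstream of ERK, was called (1.00 ± 0.27, adjusted p = 0.0319); 1 Tyrphostin library lay in the Control range, and the call was lost in 6 of the 9 fits that left out a library. That 1 call among 14 genes is near the 6.73% called over all genes. The median of these core genes was −0.10, and it was 0.07 under total-count scaling.

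Genes that ERK signalling is known to induce came next. Of 15 tested feedback genes, 3 fell and 1 rose, with a median of −0.77. Dusp6, the phosphatase that inactivates ERK, was at 361, 512 and 773 CPM in Control and at 125, 179 and 69.5 CPM in Tyrphostin (−2.12 ± 0.32, adjusted p = 0.000534), with no overlap. Dusp10 fell by 1.67 ± 0.35 and Dusp4 by 1.77 ± 0.41 (lost without Tyrphostin 2, 0.0814), while Dusp8, a phosphatase of JNK and p38 kinases, rose by 1.69 ± 0.38 (lost without Tyrphostin 2, 0.0953). Spry2 and Dusp1, which also restrain the pathway, stood at −1.55 ± 0.46 (adjusted p = 0.059) and 0.03 ± 0.21 (adjusted p = 0.954). Among 19 tested immediate early transcription factors, 8 fell and 1 rose, with a median of −1.02, and 7 of these calls held with each library left out. Egr1, the early growth response factor, was at 1310, 1841 and 2350 CPM in Control and 505, 454 and 515 CPM in Tyrphostin (−1.88 ± 0.26, adjusted p = 0.000171). Junb, a subunit of AP-1, was at 1372, 1722 and 2039 CPM in Control and 533, 461 and 420 CPM in Tyrphostin (−1.87 ± 0.25, adjusted p = 0.000119). In both, every Tyrphostin library lay well under the lowest Control library. Fosl1, another AP-1 subunit, fell by 2.73 ± 0.39, Egr3 by 2.06 ± 0.34, and Myc, a driver of growth, by 1.41 ± 0.28. Jun moved the other way, from 165, 200 and 233 CPM to 562, 253 and 507 CPM (1.14 ± 0.24, adjusted p = 0.00688, lost without Tyrphostin 1, 0.0515), and Fos did not pass the test (−0.35 ± 0.22, adjusted p = 0.392). Jun has an antisense neighbour, and reads of a gene and its antisense partner cannot be told apart without strand.

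Transcription factors of ovulation followed. Of 12 tested, 6 fell and 0 rose, with a median of −0.96. Beside Msc these were Runx2 (from 52.2, 64.1 and 93.5 CPM in Control to 14.4, 15.6 and 17.9 CPM in Tyrphostin, −2.05 ± 0.25, adjusted p = 5.88e-05), Pparg (−1.66 ± 0.27), Runx1 (−1.39 ± 0.27), Pgr and Hif1a. Runx1 and Runx2 encode subunits of the core binding factor, and Pparg a nuclear receptor for lipids. Pgr, the progesterone receptor that follicle rupture needs, was at 1940, 2627 and 3307 CPM in Control and 1020, 716 and 1804 CPM in Tyrphostin (−1.16 ± 0.30, adjusted p = 0.0238). Its call was lost without Tyrphostin 1 or Tyrphostin 2 (up to 0.125), and that of Hif1a (−1.14 ± 0.26), the oxygen-sensing factor, without Tyrphostin 1 (0.0514).

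The matrix of cumulus expansion is hyaluronan held together by proteins that link its chains. Of 11 tested genes for it, 5 fell and 0 rose, with a median of −0.67, which was −1.17 without Tyrphostin 2. Ptx3, the pentraxin that ties the matrix, was at 38.0, 61.8 and 78.8 CPM in Control and 4.20, 12.5 and 7.82 CPM in Tyrphostin, 7.57-fold lower (−2.92 ± 0.34, adjusted p = 3.43e-05). Tnfaip6, which transfers heavy chains onto hyaluronan, was at 5981, 7048 and 12448 CPM in Control and 2119, 2512 and 1469 CPM in Tyrphostin, 3.81-fold lower (−1.93 ± 0.30, adjusted p = 0.000703). Has2, the hyaluronan synthase of cumulus cells, was at 77.1, 160 and 268 CPM in Control and 54.9, 26.4 and 60.4 CPM in Tyrphostin (−1.76 ± 0.39, adjusted p = 0.0113, lost without Tyrphostin 2, 0.0666). None of the 3 overlapped between groups. Has1, a second synthase, whose upstream window held the same response element as that of Dusp8, fell by 2.38 ± 0.28 and Adamts4, a protease of the matrix, by 1.67 ± 0.32. Vcan, the proteoglycan versican, stood at −0.67 ± 0.25 (adjusted p = 0.124) without overlap of the groups. Has2 has an antisense gene, with the same limit as for Jun.

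**Figure D3:**
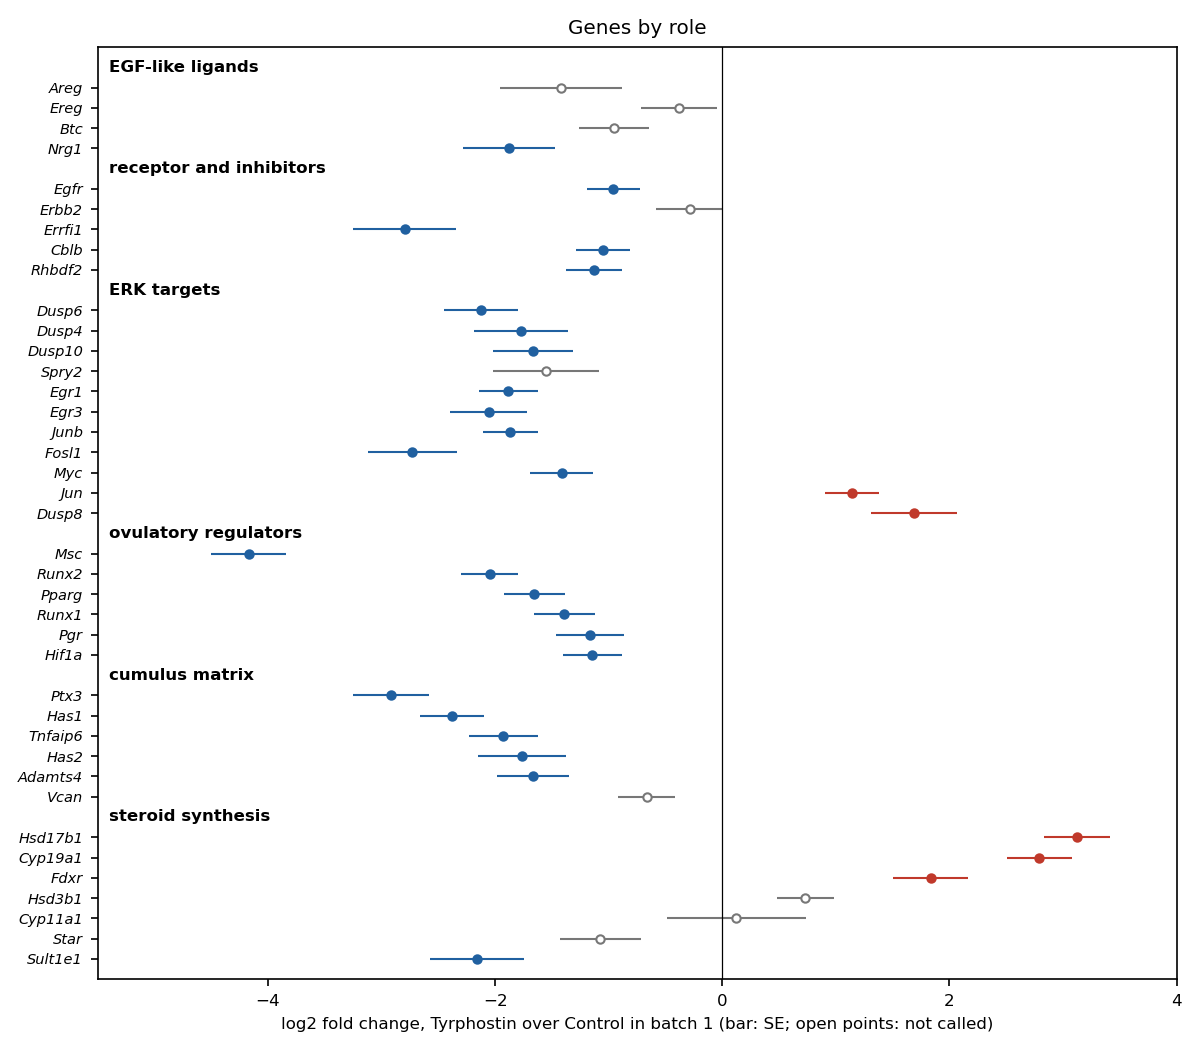
Log2 fold changes of Tyrphostin over Control in batch 1, with their SE as bars, for 39 list members grouped by role. Blue points are called lower, red points called higher and open points not called. Areg, Ereg and Btc are open, and Hsd17b1 and Cyp19a1 are red. The 6 ovulatory regulators, all blue, were drawn because they were called lower, and the other 6 of 12 tested, not called, are left out. Of the cumulus matrix genes, the 5 called lower of 11 tested are blue, and Vcan is open.

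For prostaglandins, Ptgs2, the cyclooxygenase induced at ovulation, was at 6863, 10530 and 13472 CPM in Control and at 2440, 1184 and 1888 CPM in Tyrphostin, 5.47-fold lower (−2.45 ± 0.32, adjusted p = 0.000111). It was the sole member lower among 13 tested; Ptgfr, the receptor of prostaglandin F2 alpha, rose by 1.64 ± 0.32, and Ptges, a prostaglandin E synthase, by 1.06 ± 0.26 (lost without Tyrphostin 1, 0.145). Ptger4 and Ptger2, receptors of prostaglandin E2, were at −0.17 ± 0.28 and −0.19 ± 0.51. Of 18 tested plasminogen activators, matrix proteases and inhibitors, 5 fell and 0 rose, with a median of −0.68; without Control 1 or any 1 Tyrphostin library 2 or 3 fell. Plaur, the urokinase receptor, fell by 3.10 ± 0.49, from 5.32, 15 and 24.8 CPM to 0.949, 2.19 and 1.86 CPM. Inhibitors fell too: Timp3 by 1.23 ± 0.29 (lost without Tyrphostin 1 or Tyrphostin 3, up to 0.0668) and Serpinb2 by 2.85 ± 0.68 (lost without Control 1 or any 1 of the Tyrphostin libraries, up to 0.143). Adamts1, a protease induced through Pgr, was at −0.11 ± 0.30 (adjusted p = 0.883). Serpinb2, Serpinb9 and 3 further clade B serpins, a group added after their values were seen, accounted for 5 of the 6 tested.

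Of 14 tested inflammatory signals and their receptors, 4 fell and 0 rose, with a median of −0.94, and without Tyrphostin 1 the calls were 2. Besides Il23a and Il6 they were Il1r1, the interleukin 1 receptor (from 374, 396 and 572 CPM to 183, 111 and 162 CPM, −1.49 ± 0.25, adjusted p = 0.00124), and Osmr, the oncostatin M receptor (−1.34 ± 0.31, lost without Tyrphostin 1, 0.0592). The chemokine gene Cxcl1 was at −0.37 ± 0.48 (adjusted p = 0.731). Only 7 neuropeptides and receptors of 16 passed the filter. Of these 5 fell (3 without Tyrphostin 2 or Tyrphostin 3) and 0 rose, and the median was −2.78. Tac1, the precursor of substance P, was at 17.1, 40.5 and 106 CPM in Control and at 2.31, 2.48 and 1.86 CPM in Tyrphostin (−4.41 ± 0.54, adjusted p = 0.000176). Nts, the precursor of neurotensin, was at 586, 963 and 2232 CPM in Control and at 83.1, 119 and 97.6 CPM in Tyrphostin, 11.4-fold lower (−3.52 ± 0.40, adjusted p = 3.43e-05). Adcyap1, the precursor of PACAP, a peptide that acts through cyclic AMP, was at 71.7, 124 and 441 CPM in Control and at 14.6, 12.1 and 4.47 CPM in Tyrphostin (−4.02 ± 0.74, adjusted p = 0.00797, lost without Tyrphostin 2, 0.061). The Control libraries spread widely in these 3 genes, with Control 4 highest in Tac1 and Adcyap1, but no Tyrphostin library reached them. The receptor Adcyap1r1 fell by 2.78 ± 0.71 (lost without Control 2, Tyrphostin 2 or Tyrphostin 3, up to 0.0869) and Npy, neuropeptide Y, by 2.09 ± 0.53 (lost without Control 1, Tyrphostin 1 or Tyrphostin 3, up to 0.11).

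The list of estrogen synthesis and preovulatory granulosa genes moved the other way. Of 18 tested, 7 rose and 1, Sult1e1, fell, and the median was 0.93; all 8 calls held with each library left out. Beside Gata4, Hsd17b1, Cyp19a1, Greb1 and Nr5a2, the risers were Ccnd2 and Lhcgr. Ccnd2, the cyclin D2 of granulosa growth, was at 59.8, 71.8 and 80.6 CPM in Control and at 267, 138 and 155 CPM in Tyrphostin (1.42 ± 0.23, adjusted p = 0.000776). Lhcgr, the receptor of luteinizing hormone and hCG, was at 177, 300 and 375 CPM in Control and at 728, 729 and 640 CPM in Tyrphostin (1.22 ± 0.24, adjusted p = 0.00377). Both rose without overlap, and the call of Lhcgr was lost with the depth of each library as a covariate. Fshr, the receptor of follicle-stimulating hormone, stood at 0.80 ± 0.39 (adjusted p = 0.248) and Esr2, the estrogen receptor beta, at 0.97 ± 0.39 (adjusted p = 0.152). Of 8 granulosa markers that were tested, 3 were higher (Gata4, Cyp19a1 and Nr5a2, all of them also on the estrogen list) and 0 lower.

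Other subunits of inhibin and activin did not pass the test. Inha was at 37131, 42975 and 50002 CPM in Control and 47207, 40240 and 40483 CPM in Tyrphostin (−0.02 ± 0.23), and Inhba was at −0.04 ± 0.24. Among the 19 tested genes of inhibin, activin, AMH and BMP signalling, Inhbb rose, as described, and Fstl3, an activin-binding protein, fell (−1.67 ± 0.45, lost without Control 4, Control 5 or any 1 of the Tyrphostin libraries, up to 0.106). Fst, another activin-binding protein, had Tyrphostin values of 328, 996 and 3442 CPM against 37.2, 112 and 999 CPM in Control, with adjusted p = 0.261. Progesterone synthesis showed 1 riser among 10 tested, Fdxr, the reductase that feeds electrons to mitochondrial P450 enzymes (from 6.88, 15.9 and 23.1 CPM to 78.7, 38.5 and 46.8 CPM, 1.83 ± 0.33, adjusted p = 0.00254). Over all genes tested, 2.94% were called higher. Star, the cholesterol carrier into mitochondria, was at 7116, 8754 and 16655 CPM in Control and 3626, 7792 and 2537 CPM in Tyrphostin (−1.07 ± 0.36, adjusted p = 0.083). Cyp11a1, the side chain cleavage enzyme, was at 2500, 4158 and 4887 CPM in Control and at 4341, 8371 and 420 CPM in Tyrphostin (0.12 ± 0.61), so that Tyrphostin 3 alone lay below and Tyrphostin 2 alone above all Control libraries.

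In the cyclic AMP pathway, 4 of 24 tested genes rose and 1 fell, and the median was 0.01. The risers were Prkar2b, Lhcgr, Pde7b, a phosphodiesterase (1.56 ± 0.35, lost without Tyrphostin 1, 0.0596), and Rasd1, a RAS-like protein. Rasd1 was at 4.11, 7.23 and 12.1 CPM in Control and at 143, 142 and 11.9 CPM in Tyrphostin (3.69 ± 0.59, adjusted p = 0.00377), so Tyrphostin 3 lay within the Control range. Its call was lost with the depth covariate, with limma-voom and with Control set 1 alone (adjusted p up to 0.344 over these and the other settings). Prkar1b, another regulatory subunit of the kinase, fell by 1.43 ± 0.24. Of 18 insulin and IGF signalling genes, 3 rose and 0 fell: Foxo1 (1.77 ± 0.35), a factor that insulin signalling keeps out of the nucleus, Irs1 (1.36 ± 0.26), the insulin receptor substrate, and Foxo3 (0.93 ± 0.27), whose call held in 1 of 9 fits with a library left out. Npr1, the receptor of atrial natriuretic peptide, was the member called among 9 genes of the CNP and gap junction list (−1.36 ± 0.29), and Nppc, which encodes CNP, was at 1.06 ± 0.35 (adjusted p = 0.0781). The call of Npr1 is 1 among 9, near the 6.73% called over all genes. Against its direction, 6 of the 9 genes lay above 0, with a median of 0.30. Of 8 NOTCH genes tested, 2 fell (Jag1 and Notch2) and 1 rose (Hey2), and the call of Jag1 alone held with each library left out. Jag1, a NOTCH ligand, fell from 76.0, 114 and 139 CPM to 24.4, 30.6 and 32.0 CPM (−1.95 ± 0.25, adjusted p = 8.76e-05). Of 16 WNT genes tested, 2 fell (Wnt2 and Lrp6) and 2 rose (Fzd4 and Fzd3), with a median of −0.22 (0.02 without Tyrphostin 1 and −0.50 without Tyrphostin 2). Lrp6, a co-receptor, fell by 1.14 ± 0.24, and its call alone held with each library left out. Axl, a receptor kinase that YAP is known to induce, fell by 1.89 ± 0.26. It was the 1 call among 12 tested YAP target and Hippo genes, which is near the 6.73% called over all genes. Their median was −0.28, and 4 of the 12 lay above 0.

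Several genes of sterol synthesis rose. Of 26 tested genes of cholesterol synthesis and uptake, 6 rose and 1 fell, 23 lay above 0, and the median was 0.62. Without Tyrphostin 1 these were 3 higher, 19 above 0 and a median of 0.36. Dhcr7, the last enzyme of the pathway, was at 81.5, 111 and 139 CPM in Control and at 443, 350 and 301 CPM in Tyrphostin (1.72 ± 0.21, adjusted p = 7.41e-05), with no overlap. Fdft1, squalene synthase, rose by 1.25 ± 0.24 and Mvd, a decarboxylase of the mevalonate pathway, by 1.40 ± 0.28. Abca1, which exports cholesterol from cells, fell from 189, 207 and 227 CPM to 95.4, 66.6 and 90.7 CPM (−1.30 ± 0.22, adjusted p = 0.00123). With the depth of each library as a covariate the calls of Mvd and Fdft1 were lost, and in batch 2 the median of the sterol list was −0.06. Fatty acid synthesis, a list added after values were seen, had 5 of 15 genes higher and 0 lower; Elovl6, an elongase, rose by 1.27 ± 0.27 and Fads1, a desaturase, by 1.13 ± 0.22.

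Genes of glucose and amino acid metabolism were described next. Slc2a1, the glucose transporter GLUT1, was at 1123, 1842 and 2468 CPM in Control and 886, 353 and 194 CPM in Tyrphostin (−1.89 ± 0.42, adjusted p = 0.0118, lost without Tyrphostin 2, 0.0885). Hk2, which phosphorylates glucose, fell by 1.64 ± 0.35 (lost without Tyrphostin 2, 0.056), and Slc16a1, a lactate transporter, rose by 1.13 ± 0.26 (lost without Tyrphostin 1, 0.0976); the other 21 of 24 tested glycolysis genes were not called, and the median was −0.32. That list rested on single libraries: without Tyrphostin 1 a total of 10 genes were lower and the median was −0.96, without Tyrphostin 2 the values were 0 lower and −0.16, and without Tyrphostin 3 the median was −0.11. Of 21 amino acid transport genes and targets of ATF4, 7 fell and 0 rose, with a median of −0.47; without Tyrphostin 2 the calls were 2 lower and 1 higher. Asns, asparagine synthetase, was at 143, 161 and 297 CPM in Control and 48.6, 78.5 and 54.6 CPM in Tyrphostin (−1.63 ± 0.29, adjusted p = 0.00173). Vldlr, a lipoprotein receptor, fell by 1.75 ± 0.31, and the others were Chac1, Phgdh, Shmt2, Psat1 and Slc7a11, each lost in at least 1 fit with a library left out. The ER chaperone Hspa5 was at 0.01 ± 0.24, and 0 of 20 genes of ER folding were called. In the list of NRF2 antioxidant genes 4 of 18 fell and 1 rose, and without Control 2, Control 3, Control 4 or any 1 Tyrphostin library 1 or 2 fell; Gsta2, a glutathione transferase, fell by 2.37 ± 0.40.

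Of 34 tested genes of the actin cytoskeleton and of adhesion, 8 fell (5 without Tyrphostin 3), 0 rose and 26 were not called; 30 lay below 0, with a median of −0.59. Itga5, the integrin subunit that binds fibronectin, was at 630, 812 and 1435 CPM in Control and 113, 195 and 126 CPM in Tyrphostin (−2.64 ± 0.32, adjusted p = 6.15e-05). Rnd3, a small GTPase that loosens actin fibres, was at 393, 790 and 1084 CPM in Control and 141, 269 and 128 CPM in Tyrphostin (−2.06 ± 0.34, adjusted p = 0.000959). In both genes every Tyrphostin library lay below every Control library. Vim, the intermediate filament vimentin, fell by 1.27 ± 0.25, and the tropomyosins Tpm1 and Tpm3 by 1.26 ± 0.26 and 1.56 ± 0.30. Of 24 collagen, laminin and basement membrane genes, 6 fell and 0 rose, with a median of −0.68, and 3 fell without Control 1, Control 5 or Tyrphostin 2. Beside Spp1 these included Nid1, nidogen (−1.45 ± 0.32, lost with the depth covariate and with Control set 1 alone), and Col6a1, a collagen VI chain (from 31.1, 42.1 and 50 CPM to 19.7, 16.2 and 21.1 CPM, −1.14 ± 0.23, adjusted p = 0.00489).

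Markers of theca and stroma, which also express collagens, were set beside the collagen list. Of 11 tested, 0 were higher, 2 were lower (Col1a1 and Col1a2, which the collagen list holds as well) and the median was −0.81. The call of Col1a1 was lost without Control 1, Control 5 or any 1 of the Tyrphostin libraries (adjusted p up to 0.104), and that of Col1a2 without Control 1, Control 4, Control 5, Control 6 or any 1 of the Tyrphostin libraries (up to 0.152). Together these markers took 0.0246 to 0.0727% of the counts in Control and 0.0313 to 0.0442% in Tyrphostin, and the theca enzyme Cyp17a1 was at 14, 45.0 and 104 CPM in Control and 161, 160 and 44.9 CPM in Tyrphostin (1.27 ± 0.54, adjusted p = 0.207). The part of theca and stroma cells in the collagen result was not tested. In batch 2 the median was 0.12 for the collagen list and 0.41 for the theca and stroma markers.

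**Figure D4:**
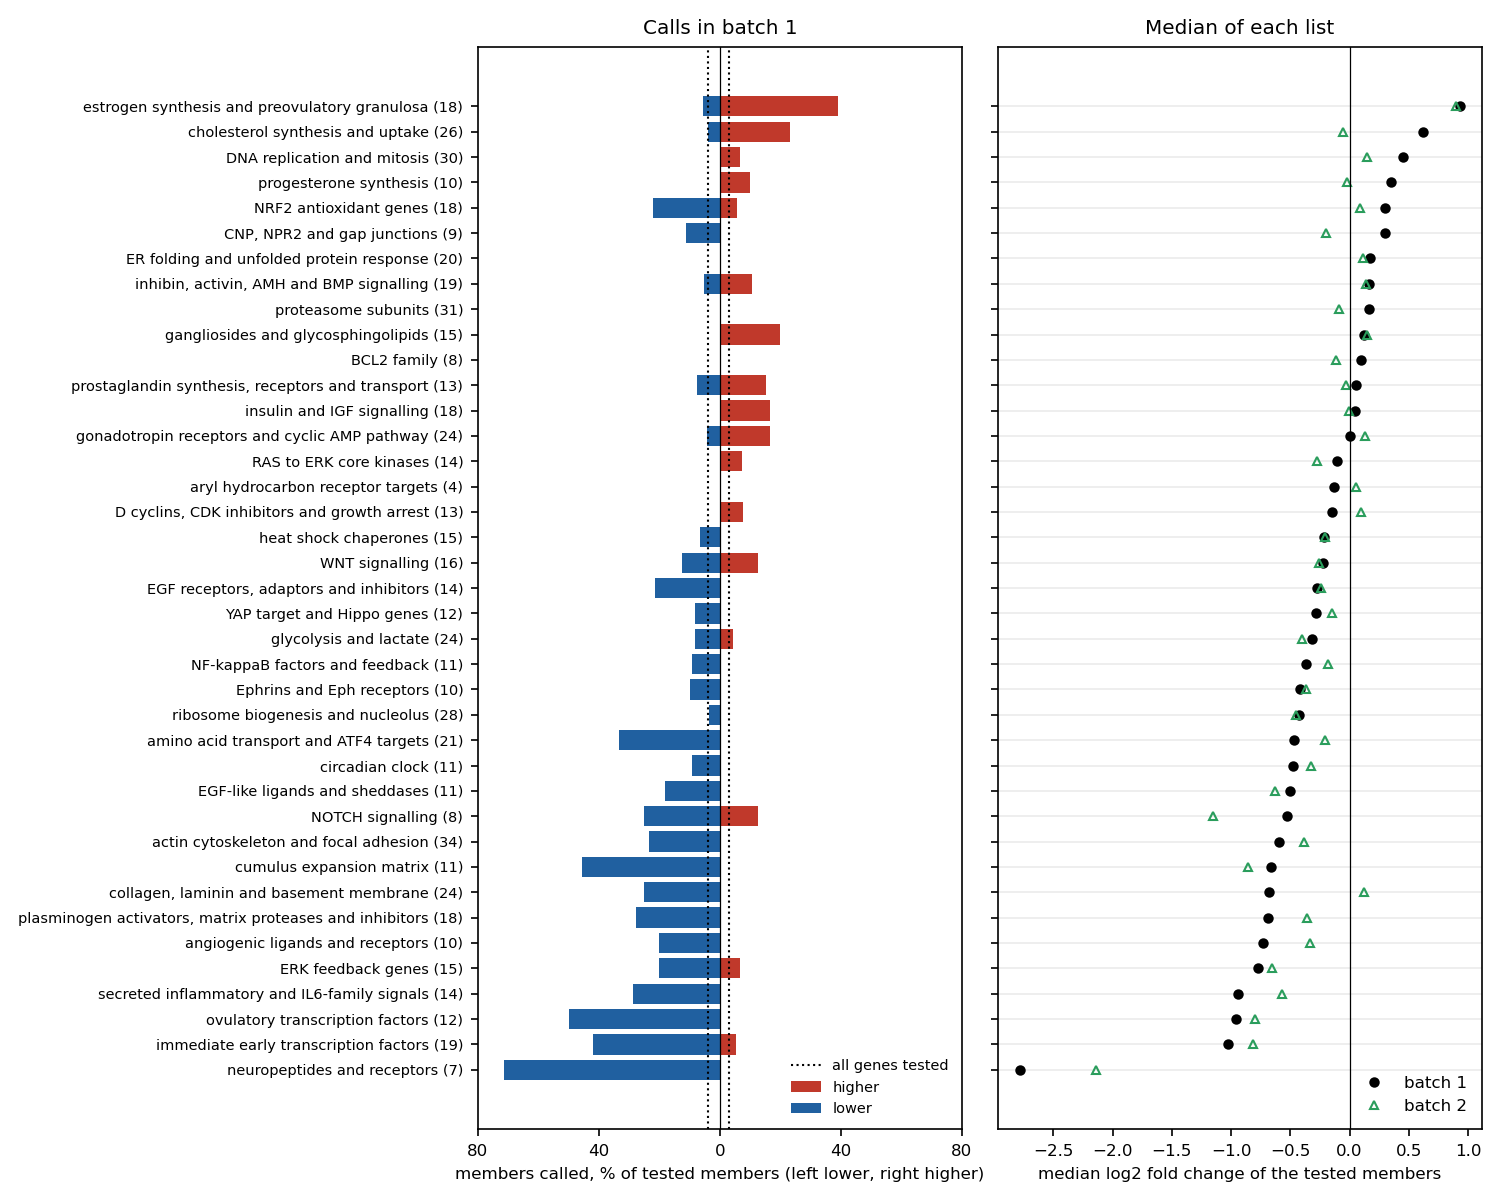
For 39 gene lists, with the number of tested members in brackets, the left panel gives the share of members called higher (red, to the right) and lower (blue, to the left), with dotted lines at the shares over all genes (2.94% and 3.79%). The right panel gives the median log2 fold change of the tested members in batch 1 (filled circles) and batch 2 (open triangles). Estrogen synthesis and preovulatory granulosa genes lie at the top in both batches (0.93 and 0.90) and neuropeptides at the bottom (−2.78 and −2.14), while the collagen list lies at −0.68 in batch 1 and 0.12 in batch 2.

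Members of some large protein complexes lay mostly on one side of 0. Of 77 tested nuclear subunits of the respiratory chain, 70 lay above 0 with a median of 0.43, and 3 rose, led by Ndufv2 of complex I (1.41 ± 0.25, adjusted p = 0.00186, lost with the depth covariate). Those 3 calls are near the 2.94% of all genes called higher, and their number was 1 without Control 2, Control 4, Control 5, Tyrphostin 1 or Tyrphostin 2, 5 without Control 6 and 7 without Tyrphostin 3 (median 0.68). Of 83 cytosolic ribosomal proteins, 73 lay above 0 with a median of 0.27, and their share of all counts was 1.97 ± 0.31% (SD, n = 6) in the Control libraries and 2.56 ± 0.48% (SD, n = 3) in the Tyrphostin libraries (exact two-sided permutation test, p = 0.0714, adjusted p = 0.381). Against Control set 1 alone the median of the ribosomal proteins was −0.01. Without Tyrphostin 1 it was 0.01, with 42 of 83 above 0, without Tyrphostin 3 it was 0.52 and without Control 1 it was 0.41. In batch 2 the medians were −0.02 for the respiratory chain and −0.37 for the ribosomal proteins. Ribosome biogenesis genes, which make ribosomes rather than being part of them, had 25 of 28 members below 0 and a median of −0.43 (−0.64 without Tyrphostin 3), with −0.45 in batch 2. DNA replication and mitosis genes had 26 of 30 members above 0, a median of 0.45 and 2 calls, Mcm3 and Ccna2, both lost in 6 or more of the fits with a library left out; these calls are near the 6.73% of all genes. No member was called among 31 proteasome subunits, 8 genes of the BCL2 family, 4 targets of the aryl hydrocarbon receptor, 13 mitochondrially encoded genes or 12 oocyte markers.

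Batch 2 gives the same contrast in 8 other libraries, 5 Control and 3 Tyrphostin, of which the calls above made no use. Of the 634 genes called in batch 1, 620 were tested there and 566 had the same sign, against 6227 of all 9160 genes tested in both. The median over the called genes was 0.60 for those higher (1.27 in batch 1) and −1.05 for those lower (−1.42 in batch 1). In batch 2 on its own 61 of 9830 genes were called (0.621%), and 52 of them were called the same way in batch 1. Msc fell by 4.35 ± 0.36 in batch 2 (adjusted p = 0.000537), St3gal5 rose by 2.54 ± 0.26 (adjusted p = 0.00133) and Nr5a2 by 2.07 ± 0.21 (adjusted p = 0.00133). Inhbb rose by 3.78 ± 0.51, Cyp19a1 by 1.86 ± 0.27, Ptgs2 fell by 2.33 ± 0.35 and Has2 by 2.97 ± 0.29. The count of calls in batch 2 rested on single libraries, with 221 without Control 7 and 11 without Tyrphostin 6.

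A test of the interaction between treatment and batch called 0 of 9603 genes (0%); 342 had an unadjusted p under 0.05, and DESeq2 also called 0. Col6a1 had the lowest p named here (8.79e-05, unadjusted), with −1.14 ± 0.23 in batch 1 and 1.00 ± 0.38 in batch 2. Among the genes of largest change, Prlr was at 2.27 ± 0.21 and 1.11 ± 0.25 (unadjusted interaction p = 0.00177), Ifi202b at −5.09 ± 0.74 and −1.81 ± 0.61 (0.00365), and Thbd at −3.21 ± 0.55 and −0.33 ± 0.67 (0.0103). After adjustment over all genes none of these differences passed the threshold.

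**Figure D5:**
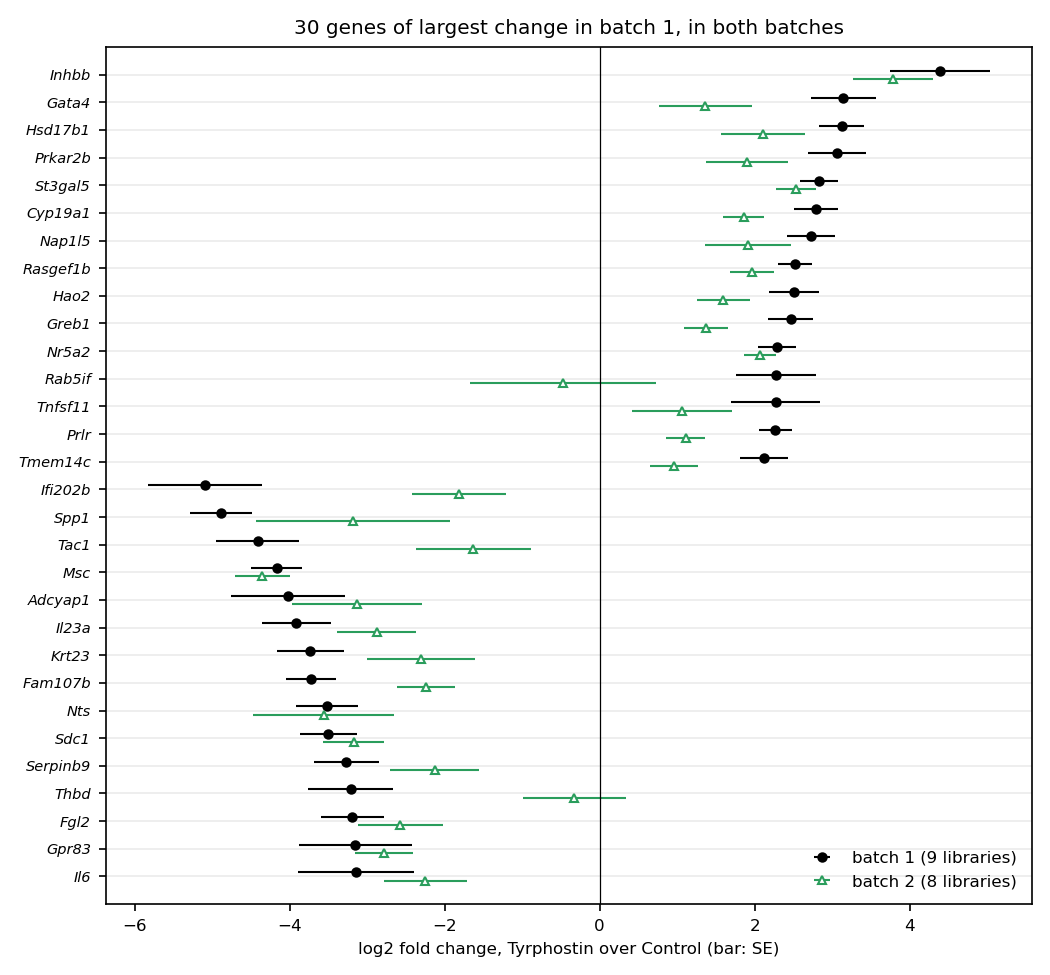
Log2 fold change of Tyrphostin over Control, with its SE as a bar, for the 15 genes of largest rise and the 15 of largest fall in batch 1, shown for batch 1 (filled circles) and batch 2 (open triangles). All but Rab5if (2.28 and −0.48) have the same sign in both batches. Since these genes were chosen by their batch 1 values, the circles are a description.

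The 2 Control sets were compared as a measure of the spread within Control. Of 8751 genes tested, 23 (0.263%) differed between set 2 and set 1, 7 of them higher and 16 lower in set 2, and 3 of these were among the 634 called genes. Gpr83 was one, higher in set 2 by 2.18 on the log2 scale (adjusted p = 0.00733), with 8.98 CPM as the lowest and 66.9 CPM as the highest Control library. Against set 1 alone 389 genes were called and against set 2 alone 434, and 219 genes (73 higher, 146 lower) were called in both of these fits and in the full comparison. With the log10 total count of each library as a covariate, which the groups differed in, 442 genes were called, 155 of them higher. Among genes named here whose calls held with each library left out, those of Lhcgr, Rasd1, Ptgfr, Foxo1, Mvd, Fdft1, Nid1 and Ndufv2 were lost in that fit. Pgr, Has2, Egfr and Dusp8 were also among the calls it lost.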

How the data were processed

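The table deposited by the authors holds raw counts, as whole numbers, with 1 row for each gene symbol and 1 column for each library. Per the submitters' processing notes, STAR, HTSeq and the build GRCm38 were used; their versions, the annotation, the strand setting and any filter are not given in the sources used here. Per the labels' protocols, RNA came from cell lysate by RNA-SPRI beads and was made into libraries by Smart-Seq2, which amplifies full-length cDNA without molecular identifiers, so that copies made by PCR were counted. The 9 libraries of batch 1 were analysed in R 4.3.3 with the package edgeR 4.0.16, using filterByExpr (minimum count 10), TMM scaling, a robust quasi-likelihood fit and F test, Benjamini-Hochberg adjustment over all genes tested and a threshold of 0.05. SEs are the log2 fold change divided by the square root of F. Library shares were compared by exact permutation over 84 arrangements, whose smallest two-sided p is 0.0238. Replicates differed by more than sampling noise in all 18 pairs (a chi-square of 11.8 to 71.1 for each degree of freedom), which PCR copies can raise. A floor of 3 counts is the limit of detection per library.

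The members and the 49 gene lists were chosen with earlier results of these data known, and 5 further lists after their values were seen. Genes named singly had an adjusted p under 0.05, an average log2 CPM of at least 3 and no overlap of the groups (the 15 highest and 15 lowest fold changes), were list members, had the lowest interaction p, or were among the 5 called genes of highest average counts in each direction. Alternatives were DESeq2 1.42.0, limma-voom (limma 3.58.1), other scalings, filters, covariates and thresholds, each Control set, blocks by number and the omission of each library. On counts simulated for this comparison with 9423 genes, 19% of genes changed by 1 on the log2 scale and 85% of those changed by 2 were recovered, and 6.31% of calls were false. Some items are not reported here.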

Additional observations from a re-analysis of the deposited data

Results flagged for a closer look

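Of 51 sets of Control values searched (12 library measures and 39 genes, each over 6 libraries), 6 held 1 library far from the others. Chance gives about 2.55 such cases if the sets are independent and their values normally distributed. CPM need not be so distributed, and several cases fall on Control 4, so the 6 cases do not show an excess over chance. Control 6 had 1821000 counts, with 3807000 to 4835000 in the other Control libraries. Control 4 was highest in Tac1 (106.3 CPM, others 17.06 to 49.9), in Adcyap1 (441.4 CPM, others 71.68 to 192.2), in Sdc1 (3070 CPM, others 1251 to 1570) and in Tnfaip6 (12450 CPM, others 5981 to 7549). Control 1 was highest in Il6 (96.23 CPM, others 10.28 to 39.2). Tac1, Sdc1 and Tnfaip6 were called with each library left out, so these 3 calls did not rest on Control 4.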

How the results depend on the processing

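Counts of called genes moved with several choices, and the cause was not tested unless stated. Against the 634 calls (277 higher, 357 lower), Control set 1 alone gave 389 (146 higher), Control set 2 alone 181 higher, and Control libraries summed by set, with fewer samples, 239 (71 higher, 168 lower). A threshold of 0.01 gave 282 (114 higher, 168 lower), total-count scaling 459 higher and 264 lower, no filter 508 higher and 395 lower, so that in these 2 fits most calls were higher, the depth covariate 155 higher, and DESeq2 924 in all with 558 lower. Leaving out 1 library gave 394 (without Tyrphostin 2) to 687 calls (without Control 6), 170 to 296 higher and 224 to 391 lower, and in batch 2, where these fits were added after seeing the data, 11 to 221. With no filter the interaction had 79 calls and the Control sets 153; the sets had 2 to 42 with a library left out. The replicate block by library number gave 817 calls, and 48 between Control sets; the block by title number, over 6 libraries, gave 848. Deviations of same-numbered Control and Tyrphostin libraries from their group means correlated at r = 0.33, 0.08 and 0.05 (Control set 1) and 0.07, 0.05 and 0.20 (set 2), and from their set means at 0.32, 0.10 and 0.14 and at 0.13, 0.05 and 0.19. All were above 0, but not all above 0.1. For Control and Tyrphostin libraries of unlike number, deviations from set means correlated at −0.25 (Control 4 and Tyrphostin 3) to 0.13 (Control 2 and Tyrphostin 3). Whether libraries of the same number share a replicate is not stated. The main fit took no pairs, and these values do not exclude a pairing. No named gene that was called changed direction under the alternatives run. For these genes 3694 values stayed on their side of the threshold and 635 did not. Named genes that were not called were not followed in this way. Medians of several lists, among them RAS to ERK, WNT, NRF2 and ribosomal protein genes, changed sign under at least 1 alternative. Depth limits genes of few counts: in Control 6, a gene at the floor cannot be told from one at 0. Mean depth differed between the groups, though Tyrphostin 3 (4680244 counts) lay below Control 2 (4834875 counts). Depth and treatment can thus be told apart only in part. With the depth covariate, 320 of the 634 calls remained.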

Other observations

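Gene groups outside the main lists also held calls. Of 14 tested semaphorins, guidance proteins first known from nerves, 4 fell and 2 rose: Sema3a fell by 1.70 ± 0.30 (7.56 to 14.4 CPM in Control and 3.12 to 3.91 CPM in Tyrphostin) and Sema3e by 3.15 ± 0.64, and these 2 calls held with each library left out. Of 18 tested genes of mitochondrial fatty acid oxidation, 4 rose and 1 fell; Echs1, a hydratase of that pathway, rose by 1.11 ± 0.23, and Cpt1a, which brings fatty acids into mitochondria, fell by 1.23 ± 0.28 (lost without Tyrphostin 1, adjusted p = 0.0612). Of 20 cytosolic aminoacyl-tRNA synthetases, 3 fell, 0 rose and 17 lay below 0; the calls were of Iars (lost without Tyrphostin 1 or Tyrphostin 2, adjusted p up to 0.0878), Nars (lost without Tyrphostin 1, 0.0847) and Cars (lost without Control 2, Tyrphostin 1 or Tyrphostin 2, up to 0.128). These lists were added after their values were seen. Over all genes tested, 2.94% were called higher and 3.79% lower, and 4566 of 9423 lay below 0. A total of 509 of the 634 called genes were on none of the 49 main lists.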
